A study of Mus musculus with 24 samples.

Results

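The response of the left ventricle (LV) to angiotensin II (AngII) after loss of the ovaries was described from 8 mRNA libraries of 24-month-old female C57BL6/J mice, 4 from ovariectomized mice infused with AngII (Ovx + AngII) and 4 from ovariectomized mice without it (Ovx). All genes whose mean value over these 8 libraries reached 10 were taken, which left 13793 of the 24958 named genes of the series. The genes nearest to this limit were Cetn4 (9.994) and C030013G03Rik (9.999) below it and Slc26a7 (10.001) and Rnf223 (10.005) above it. A further 6790 named genes were at 0 in all 8 libraries.

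The mice of both groups had been ovariectomized (Ovx) at 12 months of age. AngII was given to 1 of the groups at 1.5 mg/kg/day for 28 days from a micro-osmotic pump under the skin. The other group had surgery without a pump, so that the presence of a pump and AngII itself cannot be told apart. Running saucers were withdrawn while AngII was given, and whether untreated mice kept theirs is not given in the sources used here. Each library was made from the RNA of 2 mice, so n = 4 counts pools, and the spread between libraries is not a spread between single animals. The free wall of the LV was dissected between Zeitgeber hours 2 and 6, and the hour of each pool is not given in the sources used here, so a difference in hour between the groups and AngII cannot be told apart for genes of the circadian clock. Control females with ovaries, without (Ctrl) and with AngII (Ctrl + AngII), 4 libraries each and of the same age, were in the same fit and serve for comparison.

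AngII is the effector peptide of the renin-angiotensin system, which constricts vessels through the type 1 receptor, releases aldosterone and raises the pressure against which the LV ejects. A loaded ventricle turns on a stress programme in cardiomyocytes, with natriuretic peptides and fetal sarcomere proteins, while fibroblasts are activated and lay down collagen and other matrix. In the mouse the ovaries secrete oestradiol and progesterone, whose receptors are present in the heart and vessels, and their removal models the loss of these hormones.

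Depth was comparable within the AngII group and less even in the untreated one. Relative to the median of all libraries it was 0.609 to 1.004 in Ovx and 1.007 to 1.097 in Ovx + AngII, with Ovx library 43 the shallowest. Every Ovx + AngII library was thus deeper than every Ovx library. The part of depth in the changes of low genes was not tested. The commonest positive deposited value of a library, taken as the worth of a single read, was 0.965 to 1.59 in Ovx and 0.884 to 0.962 in Ovx + AngII. In the same order 15820 to 16131 and 16070 to 16192 genes were above 0. The deposited values are normalized and not counts, so no counting interval can be given. The tissue label was checked by markers. Myh6, the adult alpha-myosin heavy chain of mouse cardiomyocytes, stood between 724070 and 882490 in the 8 libraries, and the atrial genes Sln and Myl7 stayed at or below 4.44 and 11.5. Per-library values below are in the order Ovx libraries 43, 44, 45 and 53, then Ovx + AngII libraries 46, 47, 48 and 54, in rescaled normalized values.

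AngII changed 154 of 13793 genes in Ovx mice (1.12%), 104 upward (0.754%) and 50 downward (0.363%). A gene was called, or counted as changed, where limma gave it an adjusted p no higher than 0.05 (Benjamini-Hochberg) and its log2 fold change reached 1 in either direction. Without the limit on size 1405 genes passed (10.2%), of which 703 rose (5.10%) and 702 fell (5.09%), and "rose" and "fell" are used in this sense below. The 4 Ovx + AngII libraries lay wholly above the 4 Ovx libraries for 7.65% of genes and wholly below them for 8.84%. For a single gene such a separation has p = 0.0286 in an exact two-sided permutation test, the smallest that 4 libraries against 4 allow. The rises were carried by abundant genes more than the falls, since 25 of the 104 raised genes but 3 of the 50 lowered ones had a mean value of 1000 or more. The raised genes had a median log2 fold change of 1.34 and the lowered ones of 1.36 in size. On the values as deposited, where all genes in Ovx + AngII sit lower by 0.075 on the log2 scale, 89 genes were called upward and 92 downward, so that 49.2% of calls were upward instead of 67.5%.

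**Figure D1:**
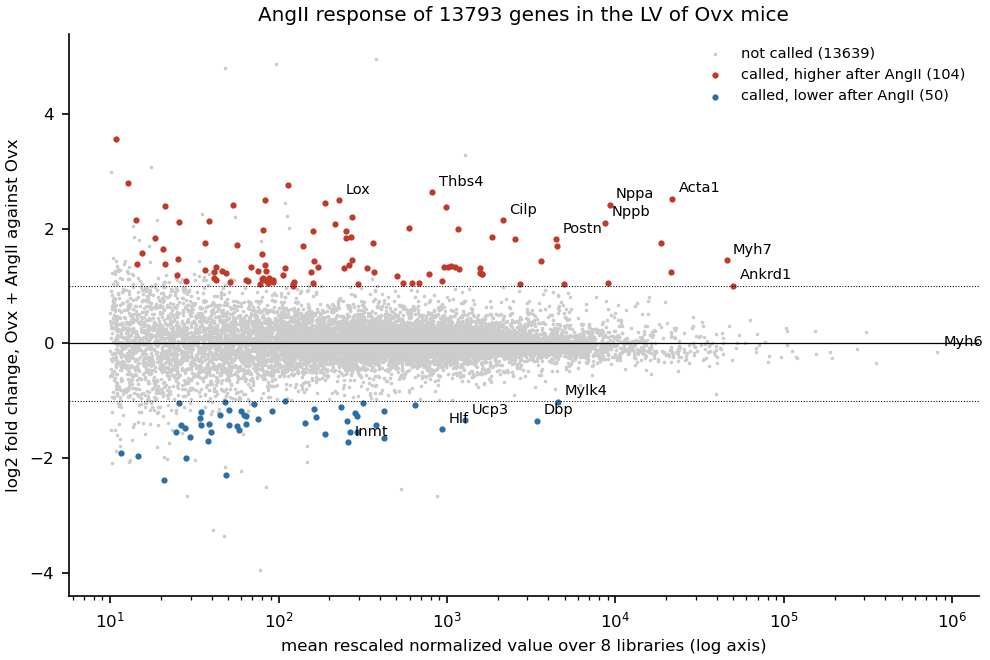
Log2 fold change of each of the 13793 genes (y axis) against its mean rescaled normalized value over the 8 libraries (x axis, log scale), with the 104 genes called upward in red and the 50 called downward in blue. The abundant genes Acta1, Nppa, Nppb, Ankrd1 and Myh7 lie among the raised genes, and grey points beyond the dotted lines at 1 and -1 did not pass the adjusted p.

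The stress genes of cardiomyocytes rose together. Of 28 tested genes of the cardiac stress and fetal programme, 18 rose, 10 of them by at least 1 on the log2 scale, and none fell. Their median log2 fold change was 0.62 against 0.01 over all genes tested. Of the 28, 17 were higher in all 4 Ovx + AngII libraries than in any Ovx library, as were 7.65% of all genes. Nppa, the gene of atrial natriuretic peptide (chromosome 4, 148000722 to 148002074 in mm10), was at 2521, 2078, 2548 and 4896 in Ovx and at 12279, 20071, 14117 and 15317 in Ovx + AngII. Every AngII library was above every untreated one, and the log2 fold change was 2.42 (standard error 0.24, adjusted p = 6.3e-06). Ovx library 53 lay far above the other 3 untreated libraries. Nppb, which encodes B-type natriuretic peptide, was at 2413, 2983, 3121 and 4979.7 in Ovx and at 12500, 13676, 17055 and 13085 in Ovx + AngII (log2 fold change 2.10, standard error 0.20, adjusted p = 5.5e-06), again without overlap and with library 53 the highest untreated one.

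Acta1, the skeletal alpha-actin that the fetal heart expresses, was at 6264, 5123, 4108 and 11296 in Ovx and at 26048, 34416, 53175 and 33943 in Ovx + AngII. Its log2 fold change, 2.52 (standard error 0.39, adjusted p = 0.00041), was the highest of the list, and library 48 alone reached 53175. Xirp2, an actin-binding protein of the intercalated disc, was at 18826, 8056, 4044 and 7575 in Ovx and at 22853, 26729, 28692 and 33229 in Ovx + AngII, so the groups stood apart although Ovx library 43 lay far above the other untreated libraries. Its log2 fold change was 1.74 (standard error 0.31, adjusted p = 0.0012). Myh7, the beta-myosin heavy chain of the fetal mouse ventricle, was at 20988, 16759, 38851 and 16857 in Ovx and at 76560, 111510, 25197 and 58654 in Ovx + AngII, and here the groups overlapped, because library 48 stood below Ovx library 45. Myh7 passed narrowly (log2 fold change 1.44, standard error 0.45, adjusted p = 0.049), and leaving out any one of 11 of the 16 libraries (37, 38, 41, 42, 43, 44, 46, 47, 51, 53 or 54) ended the call, with adjusted p from 0.053 to 0.154. Myh6 was at 882490, 871950, 839480 and 838910 in Ovx and at 756560, 746260, 875230 and 724070 in Ovx + AngII and did not pass (log2 fold change -0.15, adjusted p = 0.37). The copies Myh6 and Myh7 are near-identical in much of their sequence, as are the actin genes, and reads shared between them may have been divided in the counting.

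Ankrd1, an ankyrin repeat protein of the Z-disc and nucleus that responds to stretch, was at 33532, 27915, 32330 and 40005 in Ovx and at 57855, 76763, 67170 and 65875 in Ovx + AngII. Without overlap its log2 fold change was 1.01 (standard error 0.19, adjusted p = 0.0019), at the limit of size, and it was 0.922 without library 44, 0.993 without library 45 and 0.937 without library 47. Rcan1, an inhibitor of the phosphatase calcineurin whose own expression calcineurin drives, was at 1945, 2178, 2074 and 2128 in Ovx and at 5166, 6451, 9702 and 6289.7 in Ovx + AngII (log2 fold change 1.69, standard error 0.13, adjusted p = 5.8e-07). The untreated values of Rcan1 differed little from each other, and the lowest AngII value lay far above them. Uck2 (uridine-cytidine kinase, log2 fold change 1.34), Nmrk2 (nicotinamide riboside kinase, 1.45) and Gdf15 (a stress-induced cytokine, 1.27) completed the 10 called genes. Nmrk2 stood at 873 in library 48 against 225 to 288 in the other AngII libraries. Among the called stress genes library 48 was the highest AngII library for 5 and library 53 the highest untreated one for 5 of 10. Smaller rises were seen for Fhl1, a LIM protein of the sarcomere (0.44, adjusted p = 0.019 from limma).

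**Figure D2:**
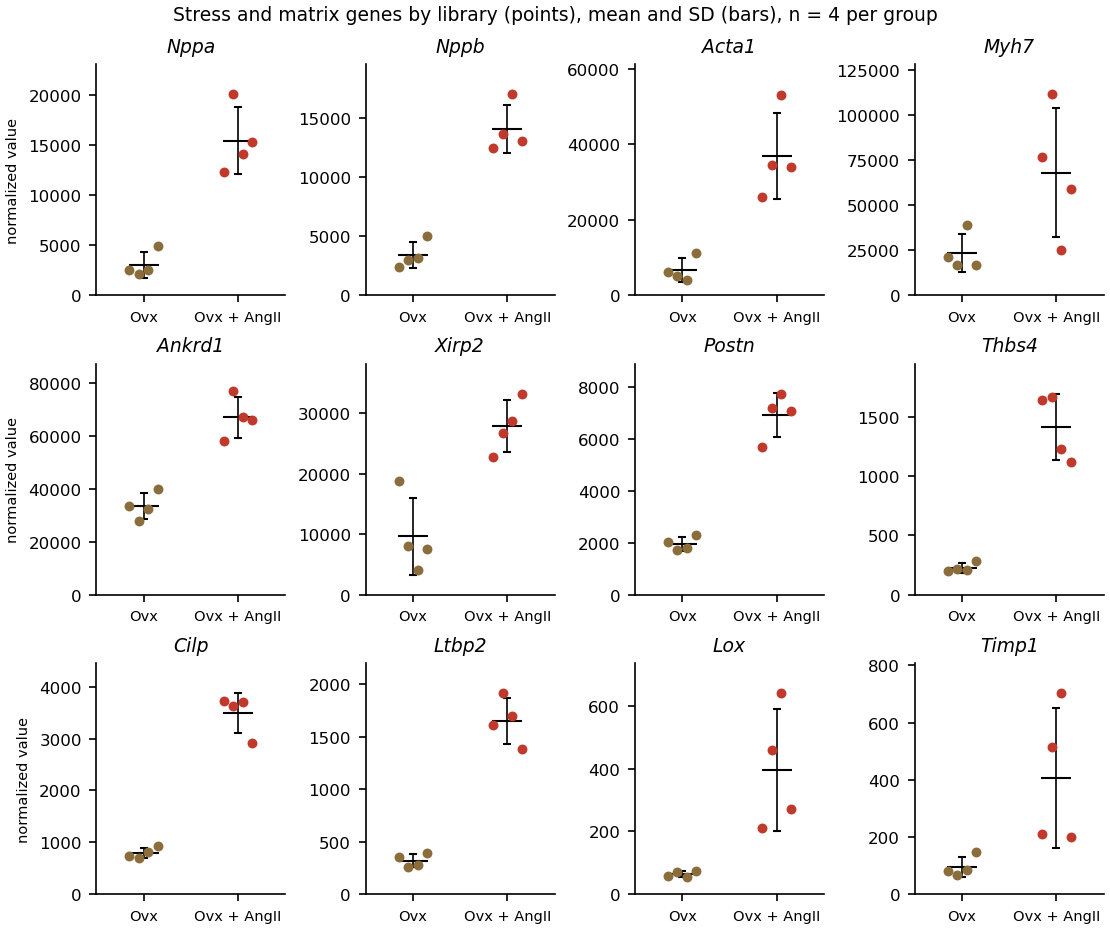
Rescaled normalized value (y axis, from 0) of 6 cardiomyocyte stress genes and 6 matrix genes in the 4 Ovx and 4 Ovx + AngII libraries (points), with mean and SD. The groups overlap for Myh7 only, and Lox and Timp1 split the AngII libraries into 47 and 48 above and 46 and 54 below.

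Promoters of the stress genes were searched for the MCAT motif, the letters GGAATG that bind TEAD factors in muscle genes, on both strands of RefSeq windows (GRCm38.p6) from 250 bases before to 50 after the start. Of the 28 stress genes 26 had a window, and 7 of these (26.9%) held the motif, against 14.7% of all 32851 windows. A listed gene counted if any of its windows held the motif, while the share over all was taken per window. Genes with several windows thus raise the share of a list, and the shares are not in like units. Ankrd1 is shown because its window held 2 matches, in capitals (chr19:36119795-36120094, minus strand), while Acta1, Nppb and Myh7 held 1 each.
Ankrd1: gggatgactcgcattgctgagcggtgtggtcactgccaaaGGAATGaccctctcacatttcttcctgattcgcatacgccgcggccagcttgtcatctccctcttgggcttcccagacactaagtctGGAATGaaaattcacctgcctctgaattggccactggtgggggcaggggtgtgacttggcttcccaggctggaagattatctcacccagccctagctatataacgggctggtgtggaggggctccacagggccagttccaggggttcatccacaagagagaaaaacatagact
A match is a description of these letters only.

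The receptors and enzymes of the peptide itself moved less. Of 13 genes of the renin-angiotensin and aldosterone system 1 rose and 2 fell, none by 1 or more on the log2 scale, with a median of 0.10. Agtr1a, the main AngII receptor of rodents, was at 1439.7, 1390.5, 1549.7 and 1358 in Ovx and at 983, 1070.5, 777 and 993 in Ovx + AngII (log2 fold change -0.59, standard error 0.10, adjusted p = 0.00070), so all AngII libraries were lower. Nr3c2, the aldosterone receptor, fell by 0.56 on the log2 scale (adjusted p = 0.020). Ace, which cleaves angiotensin I to AngII, rose from 2252 to 2620 in Ovx to 3022 to 4588 in Ovx + AngII (log2 fold change 0.55, adjusted p = 0.0068). Agt, the precursor angiotensinogen, was at 111, 112, 121 and 114 in Ovx and at 131, 167, 130 and 143 in Ovx + AngII. The groups did not overlap, but Agt did not pass by limma (log2 fold change 0.31, standard error 0.37, adjusted p = 0.67). The fit also held the Ctrl libraries, and Agt stood at 25.6 in Ctrl + AngII library 40 against 128 to 134 in the others of that group. The part of library 40 in the standard error was not tested. Of 9 genes for natriuretic peptide receptors and processing, Corin, the protease that activates atrial natriuretic peptide, fell (-0.30) and no other passed. Of 22 steroid receptor and oestrogen-linked genes 2 fell and none rose. Esr1, the oestrogen receptor alpha, was between 35.6 and 54.1 in Ovx and between 26.1 and 47.0 in Ovx + AngII and did not pass (adjusted p = 0.60).

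In each list of collagen, matricellular, microfibril, proteoglycan and laminin genes more rose than fell. The median log2 fold change was lowest for the proteoglycan and the laminin list, at 0.06 in both. In bulk tissue, fewer cells of a type and less RNA per cell cannot be told apart, and the same holds for more cells and more RNA. Of 14 fibrillar and fibril-associated collagen genes 8 rose, 4 of them called, and none fell, with a median log2 fold change of 0.65. Col1a1, a chain of type I collagen, was at 3024, 3033, 3404 and 3544 in Ovx and at 6022, 6734, 8171 and 5902 in Ovx + AngII (log2 fold change 1.04, standard error 0.15, adjusted p = 0.00021). Col3a1, the chain of type III collagen, was at 5019.9, 5789, 5837 and 6649.5 in Ovx and at 9923, 13313, 14553 and 10750 in Ovx + AngII, and its log2 fold change was 1.05 (standard error 0.18, adjusted p = 0.0012). Neither gene had overlapping groups, and both lay close to the limit of size, Col1a1 losing the call without library 48 (0.937) and Col3a1 without library 43, 47 or 48 (0.980, 0.998 and 0.956). Col12a1, a fibril-associated collagen, was the extreme member at 50.2, 38.6, 54.8 and 95.01 in Ovx and at 333, 384, 271 and 279 in Ovx + AngII (log2 fold change 2.45, standard error 0.30, adjusted p = 4.4e-05).

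Among 19 basement membrane, network and other collagens 9 rose and 1 fell. The short-chain collagens Col8a1 (1.22) and Col8a2 (1.97) were called, and the type IV chains Col4a1 (0.81) and Col4a2 (0.71), the network of basement membranes, rose by less. Col6a6, a chain of type VI collagen, went the other way at 296, 344, 355 and 289.5 in Ovx and at 161, 162, 142 and 131 in Ovx + AngII (log2 fold change -1.10, standard error 0.16, adjusted p = 0.00020). Its 4 AngII libraries lay below all untreated ones. Lox, the enzyme lysyl oxidase that cross-links collagen and elastin, was at 56.4, 70.0, 55.0 and 73.9 in Ovx and at 212, 458, 639.5 and 272 in Ovx + AngII. Although the groups stood apart (log2 fold change 2.49, standard error 0.33, adjusted p = 8.4e-05), libraries 47 and 48 were far above libraries 46 and 54. Of 27 genes for collagen folding and cross-linking 11 rose and 1 fell, Lox alone called, with Loxl2, a paralogue of Lox, at 0.89.

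Of 31 matricellular and adhesive glycoproteins 17 rose, 11 of them called, and 1 fell, with a median of 0.58. Postn, periostin, which activated fibroblasts secrete, was at 2041, 1719, 1790.3 and 2306 in Ovx and at 5707, 7202, 7718 and 7083 in Ovx + AngII (log2 fold change 1.82, standard error 0.14, adjusted p = 4.6e-07). Thbs4, thrombospondin 4, was at 199, 214, 204 and 283 in Ovx and at 1638, 1670.4, 1231 and 1119.6 in Ovx + AngII (log2 fold change 2.64, standard error 0.25, adjusted p = 5.5e-06). For both genes the lowest AngII value lay far above the highest untreated one. Cilp, a protein first described in cartilage, was at 743, 689.9, 807 and 929.9 in Ovx and at 3727, 3635, 3708 and 2914 in Ovx + AngII (log2 fold change 2.14, standard error 0.26, adjusted p = 4.1e-05), with library 54 below the other AngII libraries. Ctgf, a secreted regulator of matrix production, was at 1855, 1661, 1895 and 2425 in Ovx and at 4669, 5785, 5512 and 5198 in Ovx + AngII (log2 fold change 1.44, standard error 0.14, adjusted p = 5.5e-06).

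The thrombospondins did not move alike. Thbs1, which can activate latent TGF-beta, was at 467, 438, 342 and 513 in Ovx and at 1037, 1656, 3093 and 1709 in Ovx + AngII (log2 fold change 1.99, standard error 0.26, adjusted p = 8.4e-05), with library 48 far above the others. Comp, the fifth thrombospondin, rose by 2.02 on the log2 scale (standard error 0.34, adjusted p = 0.00092), and there library 48 was the lowest of the AngII libraries, at 627 against 845 to 1208. Thbs2 was at 1164, 1479, 1418 and 1367 in Ovx and at 1120.3, 914, 797 and 907 in Ovx + AngII and fell (log2 fold change -0.54, standard error 0.10, adjusted p = 0.0024), the only member of the list to do so. Tnc, tenascin C, varied between AngII libraries from 197 to 840 (log2 fold change 1.83), and Spp1, osteopontin, rose from low values (2.92 to 24.3 in Ovx, 36.0 to 103 in Ovx + AngII) and lost its call without library 43, 47 or 48 (adjusted p = 0.053 to 0.083) or without the libraries numbered 49 to 54 (adjusted p = 0.058).

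Of 24 proteoglycan genes 5 rose and 1 fell, with a median of 0.06. Fmod, fibromodulin, which shapes collagen fibrils, was at 84.7, 98.2, 85.7 and 81.6 in Ovx and at 736, 542, 190.1 and 360.4 in Ovx + AngII (log2 fold change 2.21, standard error 0.40, adjusted p = 0.0015). Library 48, the highest for Lox and Thbs1, was the lowest AngII library for Fmod. Vcan, versican (1.30), and Prg4, lubricin (1.09), were called too. Prg4 had 0.948 without library 45 and 0.954 without library 48. Among 18 genes of elastic fibres and microfibrils 8 rose and 3 fell. Ltbp2, a microfibril protein of the latent TGF-beta binding family, was at 352, 262, 275 and 394 in Ovx and at 1609.6, 1918, 1701 and 1386 in Ovx + AngII (log2 fold change 2.37, standard error 0.28, adjusted p = 3.1e-05), without overlap and with a narrow spread in either group. Mfap4 (1.05) and Mfap5 (1.32) were the other called members, Mfap4 not without library 48 (0.973), and fibrillin 1 (Fbn1) rose by 0.90. Of 12 laminin and nidogen genes 2 rose and 1 fell.

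Proteases and their inhibitors were mixed. Of 40 tested, 11 rose and 2 fell, with a median of 0.34. Timp1, an inhibitor of metalloproteinases, was at 79.8, 66.6, 84.9 and 148 in Ovx and at 212, 516, 702 and 200.2 in Ovx + AngII (log2 fold change 1.95, standard error 0.36, adjusted p = 0.0019). Adamts4, an aggrecanase, was at 16.2, 18.2, 9.97 and 10.6 in Ovx and at 28.1, 85.0, 194 and 67.2 in Ovx + AngII (log2 fold change 2.41, standard error 0.55, adjusted p = 0.0082). Both had libraries 47 and 48 high and 46 and 54 low, as for Lox, and neither overlapped the untreated group. Adamts4 lost the call without the libraries numbered 49 to 54 (2.36, adjusted p = 0.064). Adamtsl2 (1.17), Adamts15 (1.03) and Adamts12 (1.06) were called at lower folds, Adamts15 not without library 48 or 53 (0.919 and 0.934) and Adamts12 not without library 44, 45, 47, 48, 53 or 54 (adjusted p = 0.053 to 0.098). The gelatinase Mmp2 (0.75) and the membrane protease Mmp14 (0.81) rose. Mmp9, the other gelatinase, was at 105, 104, 82.8 and 67.9 in Ovx and at 43.8, 16.03, 23.4 and 71.6 in Ovx + AngII and fell (log2 fold change -1.40, standard error 0.37, adjusted p = 0.021), with library 54 overlapping the untreated range, and lost the call without library 44, 47 or 48 (adjusted p = 0.065 to 0.080).

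Secreted signals went in both directions, and the counts stand beside 5.10% of all genes that rose and 5.09% that fell. Of 30 genes of TGF-beta and BMP signalling 7 rose and 2 fell, with a median of -0.01. Inhba, the activin A subunit, was called (1.34, adjusted p = 0.016), though not without library 45 or 47, and Gdf6 too (1.33, adjusted p = 0.034), with library 48 at 131 and a loss of the call without library 44, 45, 48 or 54. The ligand Tgfb2 rose by 0.65 and the activin antagonist Fstl3 by 0.96. Of 13 Wnt antagonists and ligands 3 rose and 2 fell. Sfrp5, a secreted antagonist of Wnt ligands, was at 44.7, 39.1, 34.7 and 60.9 in Ovx and at 15.7, 4.47, 9.08 and 16.5 in Ovx + AngII (log2 fold change -1.995, standard error 0.42, adjusted p = 0.0045), low in all libraries and lower in every AngII library. Frzb, another antagonist of the family, rose from 186 to 249 in Ovx to 465 to 631 in Ovx + AngII (1.24, standard error 0.15, adjusted p = 5.5e-05). Wif1, also an antagonist, was called (-1.25, adjusted p = 0.044) but lost the call when any one of 12 of the 16 libraries was left out (adjusted p up to 0.157).

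Of 78 cytokines, chemokines and growth factors 8 rose and 6 fell. Tnfrsf12a, the receptor of the cytokine TWEAK, was at 702, 728, 775 and 1009.6 in Ovx and at 2533, 2577, 3637 and 2907 in Ovx + AngII (log2 fold change 1.86, standard error 0.16, adjusted p = 2.4e-06). Edn3, endothelin 3, was at 195, 119, 183 and 175 in Ovx and at 581, 637, 599 and 428 in Ovx + AngII (log2 fold change 1.74, standard error 0.26, adjusted p = 0.00029), and neither gene had overlapping groups. Hbegf, a growth factor of the EGF family, had a log2 fold change of 1.04, with library 48 at 1019 against 630 to 657 in the other AngII libraries and 0.880 without it, and 0.968 without library 53. Vegfa, the main angiogenic factor, rose by 0.60 (adjusted p = 0.00099). Penk, the precursor of enkephalins, was at 293, 253, 284 and 285 in Ovx and at 162, 89.97, 55.8 and 89.2 in Ovx + AngII and fell (log2 fold change -1.58, standard error 0.23, adjusted p = 0.00018). Il15 (-0.81) and Fgf16 (-0.85), cytokine and growth factor genes, fell by less than 1.

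**Figure D3:**
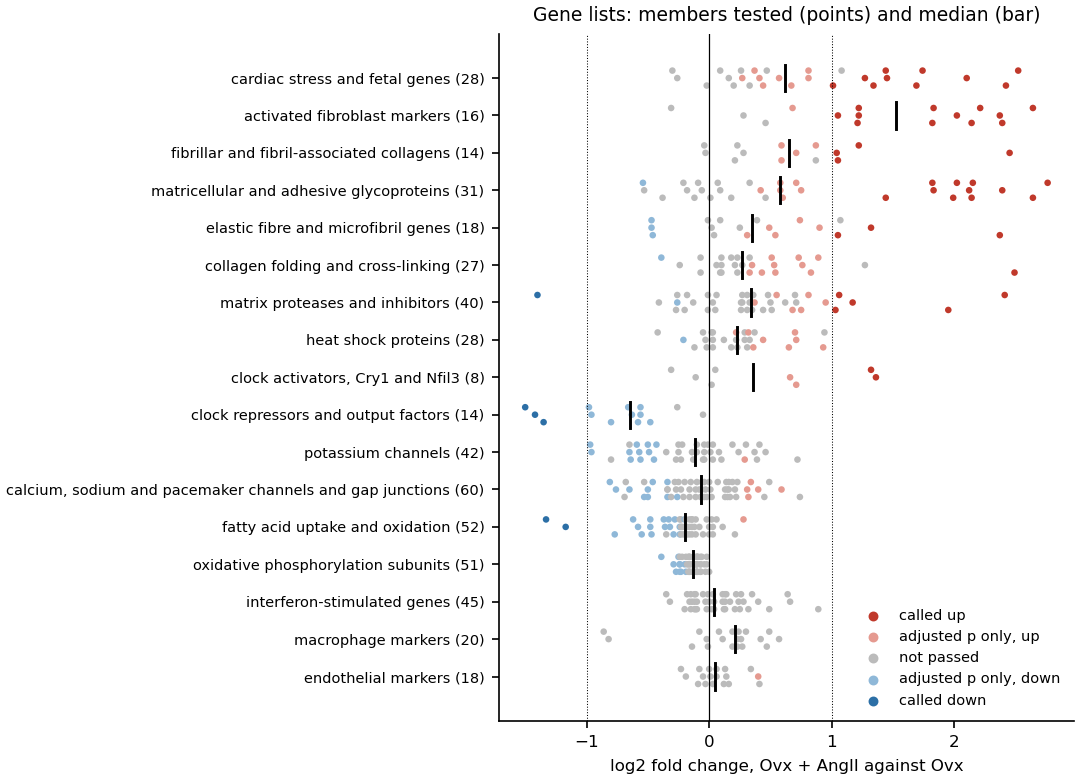
Log2 fold change (x axis) of each tested member (points) of 17 gene lists (rows, number tested in brackets), coloured by the outcome of the test, with the median as a bar. Activated fibroblast markers have the highest median (1.52), clock repressors and output factors the lowest (-0.64), and no interferon or macrophage gene passed.

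Genes of the circadian clock moved in both directions. In mammals CLOCK or NPAS2 pairs with BMAL1, encoded by Arntl, and binds E-boxes of the Per, Cry, Ciart, Nr1d and Dbp genes, whose products feed back or carry the rhythm on. REV-ERB and ROR receptors act on elements in Arntl and Nfil3, and DBP, TEF and HLF bind D-boxes. Of 8 genes comprising the activators Arntl, Clock and Npas2, ROR receptors and the repressors Nfil3 and Cry1, 4 rose and none fell. Of 14 repressor and output genes 12 fell and none rose, with all 4 AngII libraries below all untreated ones for those 12, and a median log2 fold change of -0.64. This list included the tetraspanin gene Tspan4, whose place in the clock is not certain, and without it 11 of 13 fell.

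Arntl was at 217, 128, 188 and 76.8 in Ovx and at 294, 366, 457 and 361 in Ovx + AngII, so all AngII values lay above the untreated ones, which themselves spread from 76.8 to 217 (log2 fold change 1.36, standard error 0.32, adjusted p = 0.0096). In a fit of all 24 libraries the adjusted p of Arntl was 0.066, and without the libraries numbered 49 to 54 it was 0.107. Npas2 was at 51.2, 55.7, 91.3 and 52.2 in Ovx and at 126, 139, 204 and 154 in Ovx + AngII (log2 fold change 1.32, standard error 0.23, adjusted p = 0.0011). Clock rose less, from between 802 and 1308 to between 1484 and 1572 (0.71, adjusted p = 0.00082), and Nfil3 by 0.66 (adjusted p = 0.0092).

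Dbp (chromosome 7, 45705100 to 45710203) was at 4455, 5059.6, 4619 and 5512 in Ovx and at 2506, 1875, 1460.4 and 1996 in Ovx + AngII (log2 fold change -1.35, standard error 0.13, adjusted p = 7.8e-06). Its group mean went from 4911 ± 475 to 1959 ± 431 (SD, n = 4). Hlf was at 1269, 1301, 1420.2 and 1495 in Ovx and at 599, 547, 338 and 495 in Ovx + AngII (log2 fold change -1.50, standard error 0.15, adjusted p = 1.1e-05), and Tef, the third factor of this family, fell by 0.80 on the log2 scale (adjusted p = 2.5e-05). Ciart, a repressor of CLOCK and BMAL1, was at 490.5, 543, 449 and 717 in Ovx and at 222, 190.4, 177 and 221 in Ovx + AngII (log2 fold change -1.42, standard error 0.21, adjusted p = 0.00024). None of these groups overlapped, and library 48 was the lowest AngII library for Dbp, Hlf, Tef and Ciart. Per2 (-0.96) and Per3 (-0.98) fell just short of the limit of size, Cry2 (-0.66), Per1 (-0.63) and Nr1d2 (-0.48) fell by less, and Nr1d1, which encodes REV-ERB alpha, overlapped between the groups and did not pass (-0.26, adjusted p = 0.30).

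Promoters are shown for the clock genes Ciart, Per3 and Arntl, since these windows held the motifs of the factors named above. The letters searched, on both strands, were CACGTG for the E-box, TTANGTAA for the D-box and TAGGTCA for the element of ROR and REV-ERB, and no motif contains another. Capitals mark the matches, and the windows are chr3:95882179-95882478 (Ciart, minus strand), chr4:151044616-151044915 (Per3, minus strand) and chr7:113207261-113207560 (Arntl, plus strand).
Ciart: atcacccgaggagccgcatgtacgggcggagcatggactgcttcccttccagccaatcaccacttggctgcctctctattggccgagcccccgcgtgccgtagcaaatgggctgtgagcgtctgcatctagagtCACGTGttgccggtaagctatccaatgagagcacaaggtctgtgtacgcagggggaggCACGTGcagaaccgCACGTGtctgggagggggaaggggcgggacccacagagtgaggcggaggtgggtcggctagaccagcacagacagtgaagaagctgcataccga
Per3: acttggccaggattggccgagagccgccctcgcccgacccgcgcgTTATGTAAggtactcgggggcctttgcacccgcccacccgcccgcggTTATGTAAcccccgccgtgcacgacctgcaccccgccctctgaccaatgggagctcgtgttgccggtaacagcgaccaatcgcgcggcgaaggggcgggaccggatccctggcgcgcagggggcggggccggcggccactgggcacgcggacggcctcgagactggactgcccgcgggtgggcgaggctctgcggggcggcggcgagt
Arntl: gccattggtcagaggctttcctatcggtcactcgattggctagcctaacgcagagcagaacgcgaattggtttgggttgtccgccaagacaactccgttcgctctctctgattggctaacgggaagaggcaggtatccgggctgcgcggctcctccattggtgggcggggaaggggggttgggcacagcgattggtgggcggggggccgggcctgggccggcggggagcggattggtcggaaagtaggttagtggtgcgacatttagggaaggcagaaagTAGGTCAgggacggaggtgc
The Ciart window held 3 E-boxes, the Per3 window 2 D-boxes and the Arntl window 1 ROR element. E-boxes were found in 5 of 12 repressor and output genes with a window (Ciart, Per1, Tef, Bhlhe41 and Tspan4, 41.7%) and in 7.15% of all windows. The ROR element was found in Arntl and Nfil3, 2 of 7 genes of the activator list with a window (28.6%), and in 2.61% of all windows, and the D-box in Per3 alone of the 12 (8.33%) and in 2.32% of all windows. The windows of Dbp, Hlf and Nr1d1 held none of these letters. As for the MCAT motif, the list shares count genes with a match in any window and the others count single windows.

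**Figure D4:**
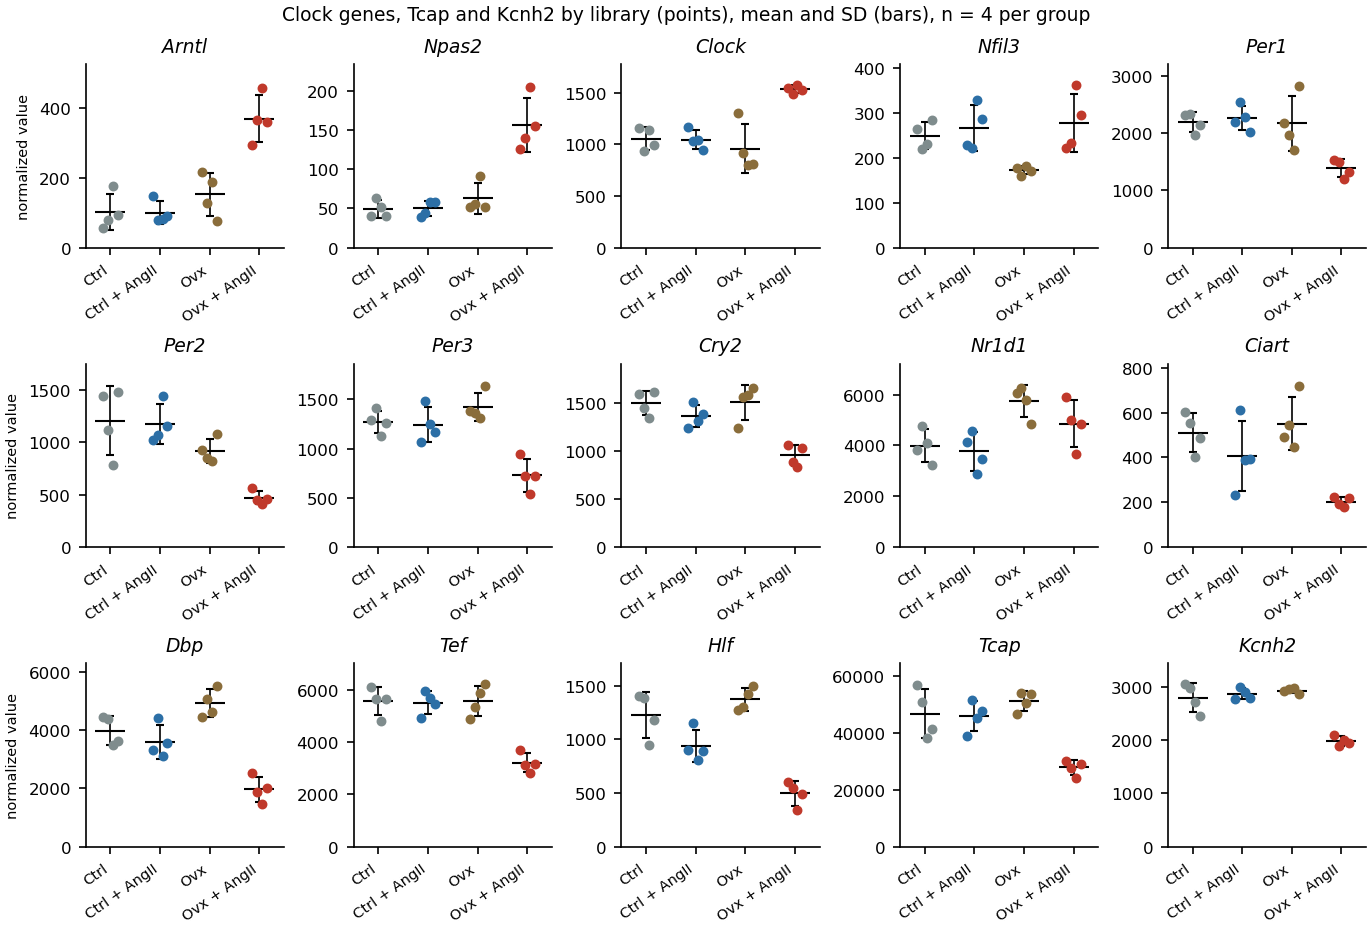
Rescaled normalized value (y axis, from 0) of 13 clock genes, Tcap and Kcnh2 in the 4 libraries (points) of Ctrl, Ctrl + AngII, Ovx and Ovx + AngII, with mean and SD. Among the genes lowest in all 4 Ovx + AngII libraries are Dbp, Tef, Hlf, Ciart, Cry2, Per2, Per3, Tcap and Kcnh2, and Arntl, Npas2 and Clock are highest there.

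In the potassium channel list and in that of calcium and sodium handling more genes fell than rose, and none was called. Of 42 potassium channel genes 11 fell and 1 rose, where 5.09% of all genes fell and 5.10% rose. Kcnh2, which encodes the channel of the rapid delayed rectifier current, was at 2922, 2959, 2974 and 2859 in Ovx and at 2099, 1889.9, 1995 and 1954 in Ovx + AngII, with a narrow spread in both groups (log2 fold change -0.56, standard error 0.06, adjusted p = 1.9e-05). Kcnj2 and Kcnj3, inward rectifier channels (-0.57 and -0.64), Kcnd2, of the transient outward current (-0.59), and Kcnv2, a silent subunit (-0.96), also fell. Of 60 calcium, sodium and pacemaker channel, calcium handling and gap junction genes 10 fell and 5 rose, and those that rose were 3 without library 44 or 48 and 2 without library 45. Scn4b, a sodium channel beta subunit, was at 3973, 4491, 4301 and 3977 in Ovx and at 2591, 2346, 2589 and 2376 in Ovx + AngII (log2 fold change -0.76, standard error 0.06, adjusted p = 4.6e-07). Atp2a2, the calcium pump of the sarcoplasmic reticulum, fell by 0.34 on the log2 scale (adjusted p = 0.010), Cacnb2, a calcium channel beta subunit, fell by 0.50, and Hcn2, a pacemaker channel, rose by 0.59 (adjusted p = 0.042). Clcn1, a chloride channel best known from skeletal muscle and in neither list, was called and stood at 415, 363, 345 and 329.7 in Ovx and at 174, 121, 123 and 155 in Ovx + AngII (log2 fold change -1.35, standard error 0.18, adjusted p = 9.9e-05).

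In the lists of fatty acid use, oxidative phosphorylation and glucose use more genes fell than rose, but most members did not pass. Of 52 genes of fatty acid uptake and oxidation 18 fell (5.09% of all genes did) and 1 rose. Without overlap 26 lay below (8.84% of all genes did), and the median was -0.20. The count that fell ranged from 10 without library 44 to 36 on the values as deposited. Ucp3, a mitochondrial carrier linked to fatty acid use, was at 1862, 2855, 1179 and 1527 in Ovx and at 835, 811, 475 and 736 in Ovx + AngII (log2 fold change -1.33, standard error 0.25, adjusted p = 0.0020). It fell without overlap, and Acaa2 (-0.47), Cpt1a (-0.48) and Hadha (-0.33), a thiolase, the carnitine carrier enzyme and the trifunctional protein of the pathway, fell by less.

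Of 51 oxidative phosphorylation subunits 10 fell and none rose (none at an unadjusted p under 0.05 either), by 0.39 at most on the log2 scale for Sdha, a subunit of succinate dehydrogenase, and with a median of -0.13. This count was 4 without library 44 or 45, 6 without library 47 or 48, 3 without the libraries numbered 49 to 54 and 26 on the values as deposited. Atp5a1 and Atp5b, subunits of the ATP synthase, had log2 fold changes of -0.24 and -0.24. Among 43 genes of glucose use 12 fell and 3 rose, with a median of -0.05. Pfkfb1, an enzyme that sets fructose 2,6-bisphosphate, was at 391, 485, 378 and 476 in Ovx and at 192, 157, 148 and 105 in Ovx + AngII (log2 fold change -1.54, standard error 0.20, adjusted p = 8.0e-05), whereas Pfkp, the platelet type of phosphofructokinase, rose from 1315 to 1635 in Ovx to 2184 to 3584 in Ovx + AngII (0.99, adjusted p = 6.1e-05).

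Several further genes with other functions were called. Lrp8, a receptor for reelin and apolipoprotein E, was at 26.6, 20.5, 14.7 and 25.1 in Ovx and at 61.9, 189, 239 and 85.7 in Ovx + AngII (log2 fold change 2.50, standard error 0.36, adjusted p = 0.00017). Dio2, which activates thyroid hormone, rose by 2.08 (standard error 0.26, adjusted p = 6.6e-05), and Tfrc, the transferrin receptor of iron uptake, by 1.82 (standard error 0.19, adjusted p = 1.1e-05). Star, the cholesterol carrier of steroid synthesis, rose from 44.6 to 76.3 in Ovx to 137 to 336 in Ovx + AngII (1.70). The water channels Aqp8 and Aqp4 went opposite ways, Aqp8 by 1.34 (standard error 0.20, adjusted p = 0.00021) and Aqp4 by -1.52 (standard error 0.26, adjusted p = 0.0010) on the log2 scale. Inmt, an indolethylamine N-methyltransferase, was at 335, 435, 379 and 404 in Ovx and at 183, 91.7, 62.5 and 176 in Ovx + AngII (log2 fold change -1.72, standard error 0.28, adjusted p = 0.00056), with all AngII libraries lower. Mylk4, a myosin light chain kinase of cardiac muscle and the most abundant called gene that fell, was at 6383, 6134, 5587 and 6409 in Ovx and at 3264, 3107, 2632 and 3142 in Ovx + AngII (log2 fold change -1.02, standard error 0.08, adjusted p = 7.0e-07), and was just under the limit without library 43, 48 or 53 (-0.995, -0.949 and -0.993).

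Stress and growth lists outside the sarcomere and matrix held few called genes. Of 28 heat shock genes 8 rose and 1 fell, none called, where 5.10% of all genes rose (5 rose without library 44, 4 without the libraries numbered 49 to 54 and 14 with library quality weights), among them Hsp90aa1, a cytosolic chaperone (0.93, adjusted p = 5.9e-05), and Hspb1, a small heat shock protein (0.65). Of 25 immediate early genes 5 rose (5.10% of all genes did), with Atf3 (1.43) and Nr4a3 (1.06) called. This count was 1 without library 45 or 48, 2 without library 47 and 3 without library 41, 42, 44, 51 or 54. Atf3 stood at 443 in library 48 against 156 to 184 in the other AngII libraries and lost the call without library 45 or 48, and Nr4a3, with adjusted p = 0.048, lost it when any one of 12 libraries was left out. Cdkn1a, the cell cycle inhibitor p21, was at 696, 636, 470.3 and 724 in Ovx and at 1091, 1638, 2098 and 1632 in Ovx + AngII (log2 fold change 1.33, standard error 0.19, adjusted p = 0.00021). Of 42 cell division genes none rose and 2 fell (0 without library 44), close to the 5.09% of all genes that fell. Cenpf, a kinetochore protein, was one of these (-1.64, adjusted p = 0.033), with overlap and a loss of the call without library 43, 44, 46, 47 or 48. None of 45 interferon-stimulated genes passed by limma (2 upward at an unadjusted p under 0.05).

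Markers of cell types were read beside these changes. Of 16 markers of activated fibroblasts 13 rose, 12 of them called, with a median of 1.52, and their summed value went from 8696 to 11690 in Ovx to 22000 to 25470 in Ovx + AngII. Acta2 of this list went the other way (-0.31), at an unadjusted p under 0.05 by limma but without passing the adjusted p. This list shares Postn, Thbs4, Cilp, Ltbp2, Comp, Tnc, Fmod, Cthrc1, Mfap4 and Col8a1 with the matrix lists above, so it does not stand as a separate measurement. Meox1, a transcription factor of activated fibroblasts that is in none of the matrix lists, was at 527, 392.4, 457 and 467 in Ovx and at 765, 996, 1463 and 1154 in Ovx + AngII (log2 fold change 1.21, standard error 0.17, adjusted p = 0.00018). Of 17 markers of fibroblasts in general 6 rose, 4 of them collagen or microfibril genes, with a median of 0.15, and their sum went from 79430 to 88710 to 96440 to 103700. Pi16, a marker of adventitial fibroblasts, was at 1547, 1767, 1892 and 1869 in Ovx and at 3829.5, 3636, 3410 and 3636 in Ovx + AngII (log2 fold change 1.04, standard error 0.11, adjusted p = 1.5e-05, and 0.976 without library 43).

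The sum of 15 ventricular cardiomyocyte markers was lower, at 2692000 to 2831000 against 2908000 to 3020000, and 4 of them fell. Tnni3, cardiac troponin I, fell by 0.32 on the log2 scale (adjusted p = 0.011). Endothelial marker sums were 57220 to 60440 in Ovx and 58780 to 62980 in Ovx + AngII, and of 18 markers only Cd93 passed (0.40). Of 20 macrophage markers none passed by limma (3 upward and 1 downward at an unadjusted p under 0.05), nor did any of 11 lymphocyte markers (1 downward). Smooth muscle sums overlapped, at 195500 to 206800 and 194700 to 199100, but most of this sum came from Des and Pln, which cardiomyocytes also express. Of the 15 smooth muscle markers 2 fell and 1 rose, with a median of -0.26, and 8 were lower at an unadjusted p under 0.05.

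The sums of 4 further marker lists did not overlap. Atrial cardiomyocyte markers went from 4019 to 4859 in Ovx to 3260 to 3887 in Ovx + AngII, and of 7 tested 3 fell and 1 rose. Much of this lower sum came from Kcnj3, at 1817 to 2617.5 in Ovx and 1307 to 1594 in Ovx + AngII. The atrial genes Sln, Myl7 and Bmp10 stayed at or below 11.51 in all libraries. Adipocyte markers went from 21110 to 22010 to 17870 to 19450, and none of 8 passed by limma (2 downward at an unadjusted p under 0.05). Adipoq, a gene of fat cells, stood only at 6.91 to 32.15, so nearly all of this sum came from other genes. The lowest member, Fabp4 (-0.23), is also in the endothelial list, and the sum is not read as a change in fat cells. Schwann cell markers went from 6626 to 6997 to 7366 to 8235, and of 11 only Prnp, the prion protein gene, which many cell types express, rose. Only 5 of the 11 had a log2 fold change above 0, and the median was -0.17. By limma 2 were lower at an unadjusted p under 0.05. Skeletal muscle markers, a list that holds Acta1, went from 57290 to 64030 to 78510 to 100400, and Acta1 alone of 5 passed. The part of shifts in cell makeup in the gene changes above was not tested.

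The AngII effect was compared with that in mice with ovaries by the interaction in the same fit. The effects with and without ovaries share no library. Of the 104 genes called upward in Ovx mice 101 also had a positive log2 fold change in Ctrl mice and 69 rose there, and of the 50 called downward 48 had a negative one and 21 fell there. Over all genes tested the median log2 fold change in Ctrl mice was -0.01. The shares of all genes that rose or fell in Ctrl mice are not given here, so 69 and 21 stand without a background. The difference itself passed both limits for 1 gene, Dbp (0.00725% of genes), and the adjusted p alone for 8 genes (0.058%), while 1435 (10.4%) had an unadjusted p of at most 0.05. For 5 of the 8, Dbp, Tef, Kcnh2, Tcap and Tspan4, the gene fell in Ovx mice and did not pass in Ctrl mice.

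Dbp had a mean of 3978 ± 495 in Ctrl and 3591 ± 581 in Ctrl + AngII against 4911 ± 475 in Ovx and 1959 ± 431 in Ovx + AngII (SD, n = 4), a difference of effects of -1.19 on the log2 scale, adjusted p = 0.018. Tef stood at 5559 ± 536, 5510 ± 446, 5576 ± 581 and 3210 ± 366 in the same order (difference -0.79 on the log2 scale, adjusted p = 0.020). For both genes the 4 Ovx + AngII libraries lay below every library of the other 3 groups. Tcap, telethonin, a Z-disc protein that anchors titin, was at 46750 ± 8661 and 45802 ± 5220 in Ctrl and Ctrl + AngII and at 46631, 54103, 50424 and 53710 in Ovx and at 30243, 27794, 24186 and 29122 in Ovx + AngII (difference -0.86 on the log2 scale, adjusted p = 0.045). Kcnh2 was at 2801 ± 272 and 2869 ± 103 with ovaries and at 2929 ± 51.1 and 1985 ± 87.8 after Ovx (difference -0.60 on the log2 scale, adjusted p = 0.014), and Tspan4 differed by -0.77 on the log2 scale, adjusted p = 0.014.

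The other 3 genes moved differently. Ephx1, a microsomal epoxide hydrolase, went from 1754 ± 146 to 2223 ± 89.1 in Ctrl mice and from 2029 ± 170 to 1496 ± 194 in Ovx mice (SD, n = 4), rising in one and falling in the other (difference -0.79 on the log2 scale, adjusted p = 0.018). Podn, podocan, a small leucine-rich proteoglycan, also rose in Ctrl mice, from 667 ± 68.4 to 884 ± 75.2, and fell in Ovx mice, from 731 ± 90.3 to 584 ± 26.5 (difference -0.72 on the log2 scale, adjusted p = 0.045). Sulf2, which removes sulfate from heparan sulfate chains, rose in Ctrl mice from 2396 ± 173 to 3259 ± 178 and stood at 3031, 3177, 3130.3 and 3159 in Ovx and at 3099, 3178, 3133 and 3116 in Ovx + AngII (difference -0.44 on the log2 scale, adjusted p = 0.042). The count of 8 was not stable, being 0 when the fit held all 24 libraries, used a variance without trend or left out the libraries numbered 49 to 54, and 114 without Ovx library 43. Over the clock lists the median log2 fold changes in Ctrl mice were 0.01 for the 8 genes of the list with the activators and -0.06 for the 14 repressor and output genes, against 0.36 and -0.64 in Ovx mice, and apart from Dbp and Tef, and Tspan4 where it is counted, no member passed the test of the difference.

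**Figure D5:**
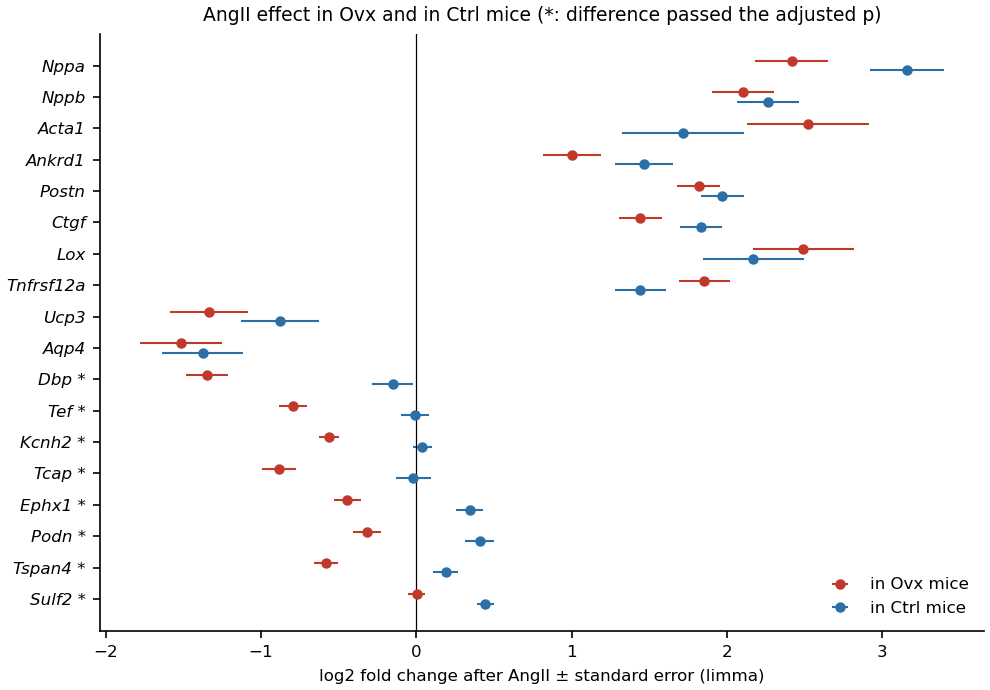
Log2 fold change after AngII ± standard error from limma (x axis) in Ovx (red) and in Ctrl mice (blue) for 10 called genes and the 8 genes whose difference passed the adjusted p (asterisks). The 10 genes lie on the same side of 0 in both, and the 8 lie lower in Ovx than in Ctrl mice.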

How the data were processed

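Free-wall LV RNA had been extracted with TRIzol and sequenced from stranded mRNA libraries. STAR was used by the authors for alignment to mm10 and DESeq2 for normalization. Salmon also stands in the submitters' processing notes, in which no tool has a version. The authors deposited 1 normalized value per gene and library, a signal that is never negative and is not a count. Whole reads could not be recovered (16.0 to 37.5% of low values were whole multiples of the commonest value within 0.02), so no count test was run. Depth was read only in relative terms, from the commonest positive value of each library. No column lacked a sample (0). The 14 rows named by dates (0.0552% of the sum) and 1 row without a name were left out.

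Values were put on 1 scale with median-of-ratios factors computed from all 24 libraries, which left a shift of 0.008 between the groups on the log2 scale (-0.075 as deposited). The 16 female libraries were fitted together by limma 3.58.1 (R 4.3.3) on log2(value + 1) (lmFit, contrasts, eBayes with trend), with Benjamini-Hochberg adjustment over 13793 genes. The added 1 makes fold changes of low genes too small. The limits were 0.05 for the adjusted p and, for a call, a size of 1 for the log2 fold change. On simulated data for Ovx + AngII against Ovx, calls were made for 98% of 100 genes with a log2 change of 1.5 and for 100% of 100 genes with one of 2, and for 0 unchanged genes, among 13870 genes in all. The changed genes had a mean value of 50 or more, and noise was normal and independent, without outlying libraries. The shares called do not carry over to lower genes or to smaller changes. In the data 82 of 104 raised and 32 of 50 lowered genes reached that mean, with median sizes of 1.34 and 1.36. Figures were drawn with matplotlib 3.10.9.

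The genes, lists and tests were chosen with earlier results of these data known. Named were the 12 largest called rises and falls among genes of mean value 50 or more whose groups did not overlap (numbered gene models and cDNA clones were counted only), called members of the lists (where over 4, the 4 of highest mean), a fixed set of genes and those whose difference passed. Other members given as examples, and Tfrc, Dio2, Star, Mylk4 and Meox1, were picked after their values had been seen. Some genes that these rules name are not reported here. Chromosome positions and promoters come from RefSeq (GRCm38.p6). Alternatives were other pseudocounts, filters, sets of libraries, scalings and variance models, library quality weights and leaving out each library.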

Additional observations from a re-analysis of the deposited data

Results flagged for a closer look

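Some single libraries stood apart from the 3 others of their group, with a gap to the nearest one that took most of the group's range. Among 4 libraries chance gives this to about 1 in 20 groups, and 15 of the 260 gene and group pairs looked at showed it. In Ovx library 53 Nppa was 4896, where the mean of the other 3 was 2382, Nr4a3 stood at 182 against 55.7 and Stum, a gene called downward, at 163 against 221. In Ovx library 43 Hsp90aa1 stood at 3541 against 2359, Dio2 at 115 against 70.1 and Il15 at 484 against 539. In Ovx library 45 Npas2 stood at 91.3 against 53.0. In Ovx + AngII library 48 Atf3 stood at 443 against 167, Nmrk2 at 873 against 262, Gdf6 at 131 against 40.1, Hbegf at 1019 against 646, Fstl3 at 499 against 379, Loxl2 at 2020 against 1448 and Lgals4, a galectin gene called downward, at 291 against 459. In Ovx + AngII library 54 Cilp stood at 2914 against 3690.

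The AngII effect in Ovx mice was lower than in Ctrl mice, by the interaction in limma at an adjusted p of at most 0.05, for 8 genes. The difference of effects on the log2 scale was -1.19 for Dbp, -0.79 for Ephx1, -0.60 for Kcnh2, -0.72 for Podn, -0.44 for Sulf2, -0.86 for Tcap, -0.79 for Tef and -0.77 for Tspan4.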

How the results depend on the processing

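Of 74 called genes chosen by the rules for named genes, less those not reported, 74 kept their direction in all 28 alternatives and 51 also kept the call. The direction was a weak test, since the genes were chosen by their size in the same data. Leaving out a Ctrl or Ctrl + AngII library, fitting all 24 or only the 8 Ovx libraries, or dropping the trend leaves the log2 fold change in Ovx mice as it is. Such alternatives could change only the adjusted p. The 154 calls ranged from 114 (mean value of at least 50, all 114 among the 154) to 200 (library quality weights, 140 shared), and those downward were 32 with the higher filter and 92 on the values as deposited. Genes that rose or fell at the adjusted p numbered 457 and 1691 as deposited, 1311 and 1162 with quality weights and 347 and 352 without the libraries numbered 49 to 54, of which each group has 1. The difference between Ovx and Ctrl mice was called for 32 genes as deposited (1040 at the adjusted p alone), for 7 with quality weights (76) and for 0 (0) with all 24 libraries, without trend or without libraries 49 to 54. Leaving out each library in turn gave 115 (without 48) to 178 (without 46) calls, 75 to 125 up and 36 to 69 down, 430 to 1024 genes that rose, 445 to 797 that fell, and 0 to 10 and 2 to 114 for the difference, with the highest of both without Ovx library 43. The log2 fold change of Sulf2 in Ovx mice (0.00) became -0.080 as deposited, -0.005 with quality weights, -0.011 without library 43 and -0.004 without library 47, in a range of -0.011 to 0.012 over the libraries left out. Of 192 counts over lists 77 moved by over 1.5 times in some alternative. The cause of these shifts was not tested. No paired analysis was possible because the groups share no library number. Relative depth limits low genes, and without counts no detection limit can be given.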

Other observations

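Some genes with high log2 differences did not pass the adjusted p and were listed at 0 in some libraries. Eif3j1 and Eif3j2, close copies of a translation initiation factor subunit, were each high where the other was low. Eif3j1 stood at 0, 0, 1264 and 1409 in Ovx and at 0, 1573, 0 and 0 in Ovx + AngII, and Eif3j2 at 2061, 1537, 140 and 0 and at 1887, 496, 2095 and 1981. No change is read from such pairs. Gvin1, a GTPase gene, was at 0 in 3 of the Ovx libraries and at 1855 in Ovx + AngII library 48, and Ccl21a, a chemokine of lymphatic vessels, was at 0 in library 46 and at 872 to 1142 in the other 7. Zfp966 and Pla2g4b were each at 0 in 3 Ovx libraries and above 0 in all 4 Ovx + AngII libraries (adjusted p = 0.058 and 0.082 from limma).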
